A study of Rattus norvegicus with 8 samples.

Results

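The genes described here encode the proteins of the cytoskeleton: actin and the proteins that assemble, crosslink and move its filaments, the ezrin, radixin and moesin linkers, the tubulins, and the intermediate filament proteins of liver. A list of 43 such genes was drawn up by name, and a gene counted as measured where a probe set of the array carried its symbol alone. Of the 43, 42 were measured, among 14511 genes in all. Cnn2, which encodes a calponin, was not analysed here. By role the 42 comprised 11 genes of actin and its turnover, 13 of actin crosslinking, adhesion and contraction (with Srf, their transcription factor), 3 membrane linkers, 10 tubulins, 2 microtubule-binding proteins and 3 intermediate filament proteins.

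Livers of male Wistar rats, 6 to 10 weeks old, were perfused with Krebs-Henseleit buffer, which holds physiological salts and bicarbonate. The normoosmotic group (4 arrays) received buffer of 305 mosm/L and the hypoosmotic group (4 arrays) buffer of 225 mosm/L, both for 180 min. RNA of homogenised whole liver was hybridised to Affymetrix whole-transcript arrays, and the deposited values are log2 expression levels. The labels number the replicates 1 to 4 in each group without saying that each is a separate animal, so the replicate error behind each p-value could be technical only.

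Water enters cells in dilute medium, and hepatocytes swell and then give off osmolytes to regain part of their volume. Actin filaments lie in a cortex under the plasma membrane and around the bile canaliculi, and microtubules, built of alpha- and beta-tubulin dimers, carry vesicles toward those canaliculi. Tubulin messenger RNA is known to be regulated by the pool of unpolymerised tubulin, whereas actin and many of its partners are transcribed by serum response factor (SRF), whose coactivators are held by unpolymerised actin.

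The array medians lay between 3.92 and 4.05 on the log2 scale. Hepatocyte markers averaged between 11.69 and 11.88 on the normoosmotic arrays and between 11.80 and 11.85 on the hypoosmotic arrays, and none of the 8 passed the test (1 of 8 had an unadjusted p under 0.05). Odorant receptor genes, which are taken here as a guide to the array's floor, had a median level of 1.85 and a 95th percentile of 3.07. Hypoosmotic replicate 3 stood apart on the second principal component, at 28.5 against -15.3 to 6.60 for the other 7 arrays, and its estimated array weight was 0.53. Calls among the 42 genes that change without it are named below.

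Of the 42 measured genes, 5 fell in the hypoosmotic livers at an adjusted p under 0.05, against 4.62% of all genes tested, and 0 rose, against 2.45% (limma with Benjamini-Hochberg adjustment over 14511 genes). In either direction 7.07% of all genes passed. The 5 were 4 tubulins (Tubb6, Tubb4b, Tuba1b and Tuba1c) and Actn1, an alpha-actinin. Before adjustment, 11 genes were lower and 6 higher at p under 0.05, or 40.5% of the 42 against 20.7% of all genes. The median change over the 42 was -0.03, beside 0.02 over all genes. For 8 genes every hypoosmotic array read below every normoosmotic array (8.21% of all genes did so), and for 1 gene, Ezr, every hypoosmotic array read above (5.33% of all genes). The tubulins held most of the falls: without them, 1 of 32 genes fell and the median change was 0.03.

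**Figure D1:**
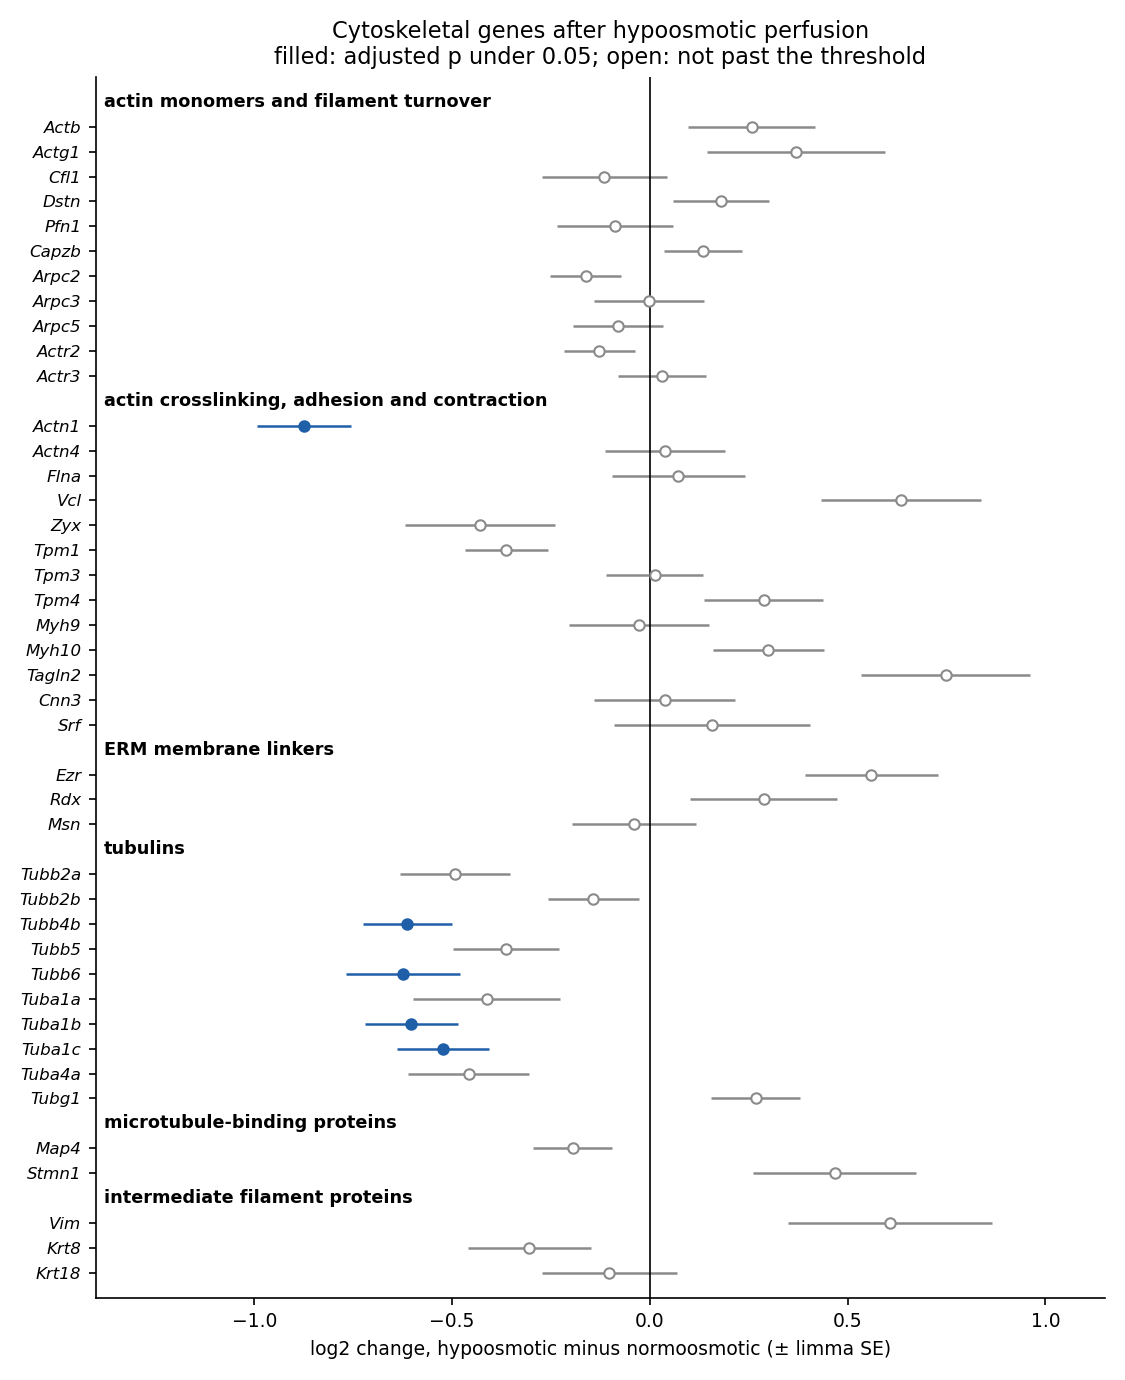
The log2 change (hypoosmotic minus normoosmotic) of each of the 42 measured cytoskeletal genes, with its limma standard error, grouped by role; filled points passed an adjusted p of 0.05. Actn1 and 4 tubulins are the filled points, all to the left of 0, and 9 of the 10 tubulins lie left of 0.

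Of the 10 tubulins, 4 fell, where 4.62% of all genes did, and 6 did not pass the test. For 9 of the 10 the change was below 0, where it was for 46.3% of all genes. The median change of the 10 was -0.48. For 5 tubulins (the 4 that fell and Tuba4a) the groups did not overlap, with every hypoosmotic array lower, as for 8.21% of all genes.

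Among the beta-tubulins, which bind the exchangeable nucleotide of the dimer, Tubb4b read 7.73, 7.53, 7.88 and 7.77 on normoosmotic replicates 1 to 4 and 7.19, 6.98, 7.02 and 7.27 on hypoosmotic replicates 1 to 4. The highest hypoosmotic array stayed below the lowest normoosmotic one. Tubb4b fell by 0.61 ± 0.11 (SE), a 1.53-fold difference (adjusted p = 0.0112). Tubb6, another beta-tubulin, read 8.05, 8.04, 8.17 and 8.19 in normoosmotic livers and 7.78, 7.56, 7.06 and 7.55 in hypoosmotic livers. The 4 normoosmotic arrays lay close together (SD 0.08), the hypoosmotic ones spread more widely (SD 0.30) with replicate 3 lowest, and the groups did not overlap. Tubb6 fell by 0.62 ± 0.14, or 1.54-fold (adjusted p = 0.0266).

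Of the other beta-tubulins, Tubb2a read 6.70 to 7.03 in normoosmotic livers and 6.16, 6.22, 6.44 and 6.73 in hypoosmotic livers. Hypoosmotic replicate 4 reached into the normoosmotic range. Its difference of -0.49 ± 0.14 did not pass the test (adjusted p = 0.0567) but did without that array (adjusted p = 0.0193). Tubb5, a widely expressed beta-tubulin, differed by -0.36 ± 0.13 (adjusted p = 0.141), with hypoosmotic replicate 1 at 8.37 inside the normoosmotic range of 8.30 to 8.60. Tubb2b, at a low level of 4.13 ± 0.14 (SD, n = 4) in normoosmotic livers, differed by -0.14 ± 0.11 (SE; adjusted p = 0.570).

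Of the 4 alpha-tubulins, the partners of beta-tubulin in the dimer, 2 fell. Tuba1b read 9.72, 9.93, 9.99 and 9.92 in normoosmotic livers and 9.48, 9.24, 9.37 and 9.06 in hypoosmotic livers, again with no overlap. It fell by 0.60 ± 0.12, or 1.52-fold (adjusted p = 0.0134). A second Tuba1b probe set gave a difference of -0.49. With all probe sets tested together, its adjusted p was 0.118 and that of the first was 0.0190. Tuba1c read 9.44, 9.60, 9.75 and 9.71 in normoosmotic livers and 9.26, 8.99, 9.22 and 8.94 in hypoosmotic livers. The gap between the groups was narrow, from 9.26 to 9.44. Tuba1c fell by 0.52 ± 0.12, or 1.44-fold (adjusted p = 0.0233). Alpha-tubulin genes are near-identical copies in sequence. No source used here says whether the probes tell Tuba1a, Tuba1b and Tuba1c apart, so the genes may share signal. Whether the probes tell the beta-tubulin genes apart was not checked either.

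Tuba4a, which encodes an alpha-tubulin without the usual terminal tyrosine, read 5.88 to 6.21 in normoosmotic livers and 5.12 to 5.78 in hypoosmotic livers. The groups did not overlap, yet its difference of -0.46 ± 0.15 did not pass (adjusted p = 0.105). Tuba1a read 6.60 to 6.97 against 6.47, 6.21, 6.89 and 5.90. Hypoosmotic replicate 3 was the array inside the normoosmotic range. The difference of -0.41 ± 0.19 did not pass (adjusted p = 0.235), and passed only when that array was left out (adjusted p = 0.0436). Tubg1, the gamma-tubulin of microtubule-organising rings rather than of the microtubule wall, was the only one of these 10 tubulins with a positive difference. It differed by 0.27 ± 0.11 (adjusted p = 0.202), with 5.17 to 5.56 in normoosmotic and 5.46 to 5.67 in hypoosmotic livers.

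**Figure D2:**
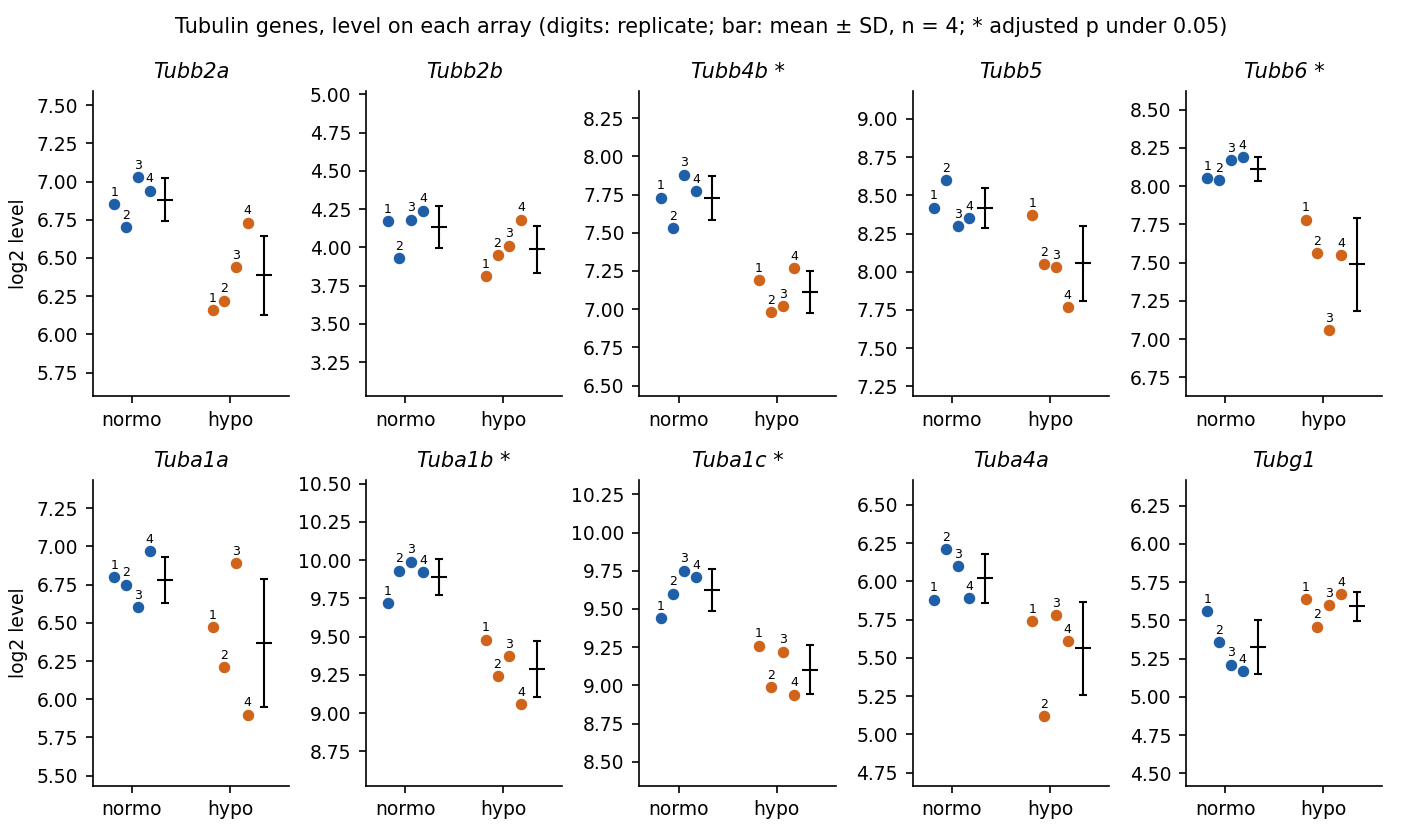
The log2 level of the 10 tubulin genes on each array, numbered by replicate, with the mean and SD of each group (n = 4); every panel spans the same range on the log2 axis and a star marks an adjusted p under 0.05. The groups are separate for Tubb4b, Tubb6, Tuba1b, Tuba1c and Tuba4a, and Tubg1 alone has the higher mean in hypoosmotic livers.

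Tubb4b, Tuba1b and Actn1 passed the test in 8 of 8 fits on 7 arrays, each made without 1 of the arrays. Tubb4b's highest adjusted p was 0.0407, that of Tuba1b 0.0466 and that of Actn1 0.0152. Tubb6 passed in 3 of the 8 fits and was lost without hypoosmotic replicate 2 or any 1 of the normoosmotic arrays, with a highest adjusted p of 0.0775. Tuba1c passed in 4 and was lost without normoosmotic replicate 2, 3 or 4 or hypoosmotic replicate 2, with a highest adjusted p of 0.0753. With 3 arrays in a group the test has less power, and neither change turned sign in any of these fits. When a change of over 1.2-fold was required, Actn1 passed and the 4 tubulins did not, with adjusted p from 0.205 for Tubb4b to 0.479 for Tuba1c. Tubb2a, Tuba1a, Stmn1, Tagln2, Vcl and Ezr did not pass with all 8 arrays, and each passed in 1 of the 8 fits. The array left out there was the one of its group nearest to the other group. It was thus singled out by the values tested, and such a pass is no support for a change. The same goes for genes of other lists that did not pass with all 8 arrays but did without 1.

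**Figure D3:**
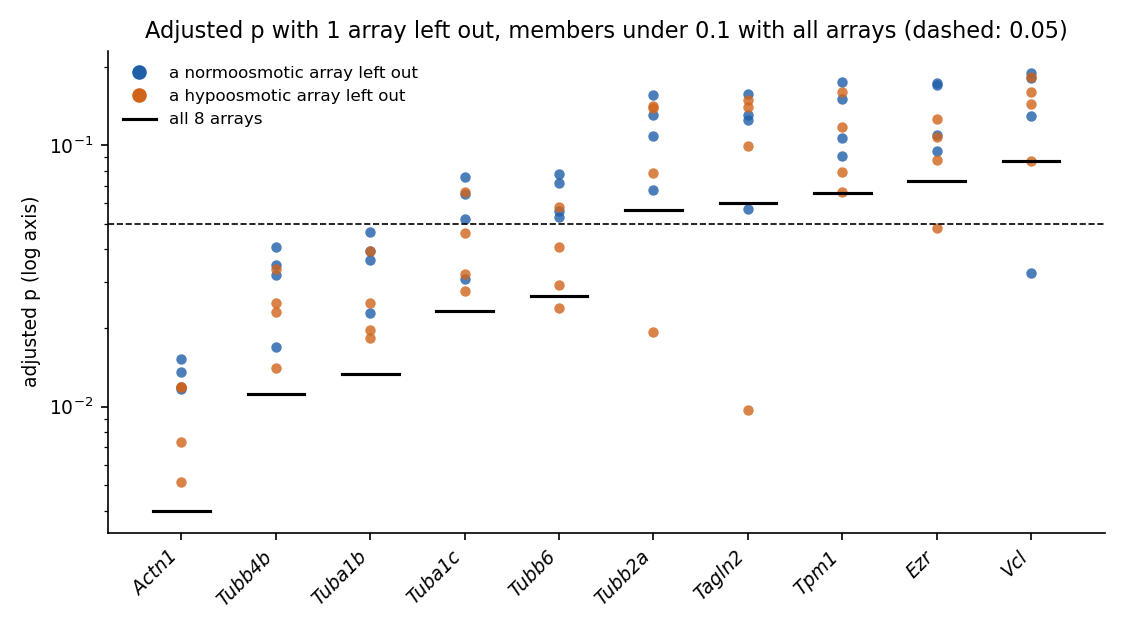
Adjusted p (log axis) of the 10 genes that had a value under 0.1 with all 8 arrays (black bars), and of the same genes with each array left out in turn (blue, a normoosmotic array left out; orange, a hypoosmotic one). Actn1, Tubb4b and Tuba1b stay under the dashed line at 0.05 throughout, while Tagln2 and Tubb2a reach 0.00972 and 0.0193 when 1 hypoosmotic array is left out.

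Promoters are shown for 3 of the 4 tubulins that fell and for Actn1, to be set beside the promoters of Actg1 and Srf further on. They are the 150 bases before the start of transcription in RefSeq's rat annotation (GRCr8), read 5′ to 3′ along the gene, with each CCAAT box, the site of the factor NF-Y, in capitals.
Tubb4b, chr3:28438456-28438605, minus strand: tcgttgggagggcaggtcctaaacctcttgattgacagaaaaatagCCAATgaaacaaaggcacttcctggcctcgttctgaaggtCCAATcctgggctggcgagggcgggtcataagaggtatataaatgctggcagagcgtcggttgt
Tuba1b, chr7:131972588-131972737, minus strand: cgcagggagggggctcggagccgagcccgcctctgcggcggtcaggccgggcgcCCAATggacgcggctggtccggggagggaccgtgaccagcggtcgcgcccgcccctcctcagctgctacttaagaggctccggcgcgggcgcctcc
Tuba1c, chr7:132070834-132070983, plus strand: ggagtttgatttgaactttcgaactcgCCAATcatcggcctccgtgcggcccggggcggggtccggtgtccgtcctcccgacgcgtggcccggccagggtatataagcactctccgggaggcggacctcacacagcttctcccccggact
Actn1, chr6:104826173-104826322, minus strand: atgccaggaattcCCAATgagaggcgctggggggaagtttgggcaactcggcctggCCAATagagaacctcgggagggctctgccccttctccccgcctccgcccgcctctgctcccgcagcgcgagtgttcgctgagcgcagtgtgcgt

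Windows of 250 bases before to 50 after the start were searched on both strands for CCAAT, which reads ATTGG on the other strand, for the GC box GGGCGG, for the TATA box TATAAA and for the CArG box, the site of SRF. Each motif was counted on its own, and matches of different motifs may overlap. Windows were found for 39 of the 42 genes, but not for Actb, Actn4 and Map4, which were not searched. A gene with several windows counted once, as holding a motif if any of its windows did. The share over all rat windows counted each window and was not limited to genes on the array, so the units differ. CCAAT stood in 8 of 10 tubulin windows (80.0%), in 64.1% of the 39 and in 37.5% of all 33469 rat windows. In Tubb4b it occurred at 4 positions, with first bases at -233, -167, -104 and -64 from the start. Tuba1b held it at -96, Tuba1c at -242 and -123, Tubb6 at -85 on the other strand, and Actn1 at -137 and -94. Tubb2a and Tuba4a, whose differences did not pass the test, were the tubulins without it. Tubb2b (-193), Tubb5 (-143), Tuba1a (-158) and Tubg1 (-50 and -10) did not pass either, and their windows held it. The GC box stood in 92.3% of the 39 windows against 33.1% of all, and the TATA box in 15.4% against 14.2%. Tubb4b's TATA box began at -27. A match describes these letters and does not show that a factor binds there.

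Other genes of the microtubule system came from 5 lists. Of 7 further tubulins measured, with mean levels from 1.93 to 4.13, 0 passed the test in either direction (limma), and 0 had an unadjusted p under 0.05. Their median change was 0.02, with 3 of the 7 below 0 and 4 above. Of 19 genes for tubulin folding and autoregulation, 2 fell, where 4.62% of all genes did. They were Cct4, by 0.40 ± 0.11 (adjusted p = 0.0486), and Cct6a, by 0.38 ± 0.10 (adjusted p = 0.0482), subunits of the chaperonin that folds tubulin and actin. Both lay just under the threshold: Cct4 passed in 1 of the 8 fits on 7 arrays, that without hypoosmotic replicate 1, and Cct6a in 0. All 8 chaperonin subunits on that list had changes below 0, where 46.3% of all genes did, with a median of -0.32. This subset was singled out after its values were seen. Ttc5, the factor that recognises nascent tubulin chains and marks their messenger RNA for decay, read 3.26 to 3.86 in normoosmotic and 3.30 to 3.99 in hypoosmotic livers, not far above the array's floor, with a difference of 0.18 ± 0.17 (adjusted p = 0.656); it too was named after its values were seen.

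Of 9 tubulin-modifying genes, 1 fell. Agtpbp1, a carboxypeptidase that trims glutamates from tubulin tails, read 4.30 to 4.47 in normoosmotic livers and 3.66 to 4.06 in hypoosmotic livers. It fell by 0.58 ± 0.11 (adjusted p = 0.0136) and passed in all 8 fits on 7 arrays. Of 25 genes for microtubule nucleation, plus ends, severing and motors, 1 fell, and 6 had groups that did not overlap, each lower in hypoosmotic livers. Over all genes 4.62% fell, and 8.21% had groups that did not overlap in that direction. Mapre1, which encodes the plus-end tracking protein EB1, read 6.40 to 6.73 against 6.02 to 6.20. It fell by 0.48 ± 0.11 (adjusted p = 0.0237), and was lost without normoosmotic replicate 3 or 4 or hypoosmotic replicate 1. Clasp1, which encodes another plus-end protein, had a difference of 0.28 (adjusted p = 0.469) and rose in the fit without hypoosmotic replicate 3 (adjusted p = 0.0481). The median change of the 25 was -0.06.

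Of the 2 microtubule-binding proteins, neither passed the test (1 had an unadjusted p under 0.05). Stmn1, which encodes stathmin, a protein that binds free tubulin dimers, read 5.73, 6.01, 5.80 and 5.36 in normoosmotic livers and 6.32, 6.16, 6.66 and 5.63 in hypoosmotic livers. Hypoosmotic replicate 4 was the array that lay among the normoosmotic values. The difference was 0.47 ± 0.21 (adjusted p = 0.222), and without that array the adjusted p was 0.0477. Map4, a protein that stabilises microtubules outside neurons, differed by -0.20 ± 0.10 (adjusted p = 0.308).

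Actn1 showed the largest change of the 42 genes. The alpha-actinin it encodes crosslinks actin filaments and ties them to adhesion sites. It read 7.45, 7.28, 7.30 and 7.16 in normoosmotic livers (mean 7.30 ± 0.12, SD, n = 4) and 6.21, 6.52, 6.33 and 6.63 in hypoosmotic livers (mean 6.42 ± 0.19). The highest hypoosmotic array, replicate 4, lay under the lowest normoosmotic one, also replicate 4. Actn1 fell by 0.88 ± 0.12 (SE), a 1.83-fold difference (adjusted p = 0.00399), the only one of the 13 crosslinking, adhesion and contraction genes to pass. Actn4, the other alpha-actinin of non-muscle cells, read 9.29, 9.80, 10.00 and 9.79 against 9.60, 9.94, 9.83 and 9.66. Its groups overlapped throughout, with a difference of 0.04 ± 0.15 (adjusted p = 0.935; 95% interval -0.30 to 0.37).

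Other genes of this group lay on either side of 0. Tpm1, a tropomyosin that lies along the actin filament, read 7.76 to 7.95 in normoosmotic and 7.34 to 7.65 in hypoosmotic livers, with no overlap. Its difference of -0.36 ± 0.11 did not pass (adjusted p = 0.0658), but did where the arrays were centred on their medians (adjusted p = 0.0490). Tpm4 differed by 0.29 ± 0.15 (adjusted p = 0.322) and Tpm3 by 0.01 ± 0.12 (adjusted p = 0.978). Zyx, which encodes the adhesion protein zyxin, read 6.57 to 7.48 in normoosmotic and 6.20 to 6.79 in hypoosmotic livers, a difference of -0.43 ± 0.19 (adjusted p = 0.224).

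The widest positive difference was that of Tagln2, an actin-bundling protein of the transgelin family. Tagln2 read 8.33, 8.71, 8.36 and 8.05 in normoosmotic livers and 9.33, 9.51, 8.47 and 9.13 in hypoosmotic livers. Hypoosmotic replicate 3 lay among the normoosmotic values, and the other 3 lay above all of them. The difference was 0.75 ± 0.21 (adjusted p = 0.0599) with that array and passed without it (adjusted p = 0.00972). Vcl, which encodes vinculin, a protein of focal and cell junctions, read 5.42, 5.80, 6.53 and 6.12 in normoosmotic livers and 6.75, 6.59, 6.40 and 6.67 in hypoosmotic livers. Normoosmotic replicate 3 was the overlapping array. The difference of 0.64 ± 0.20 did not pass (adjusted p = 0.0872), but did without that array (adjusted p = 0.0323). Filamin A (Flna, 0.07 ± 0.17), the non-muscle myosin heavy chains (Myh9, -0.03 ± 0.18, and Myh10, 0.30 ± 0.14) and the calponin Cnn3 (0.04 ± 0.18) had adjusted p values of 0.254 or more.

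Of the 11 genes of actin and its turnover, 0 passed the test in either direction (limma; 0 had an unadjusted p under 0.05), and their changes ran from -0.16 to 0.37. Actb, cytoplasmic beta-actin, read 10.63, 11.07, 11.51 and 11.10 in normoosmotic livers and 11.33, 11.45, 11.28 and 11.28 in hypoosmotic livers. Actg1, cytoplasmic gamma-actin, read 10.82, 11.42, 12.15 and 11.74 against 11.90, 11.98, 11.81 and 11.92. In both genes the hypoosmotic arrays lay close together inside the wide normoosmotic range. The differences were 0.26 ± 0.16 for Actb (adjusted p = 0.426; 95% interval -0.10 to 0.61) and 0.37 ± 0.23 for Actg1 (adjusted p = 0.411; 95% interval -0.12 to 0.86). A further 5 Actg1 probe sets gave differences from 0.39 to 0.42. With all probe sets tested together, their adjusted p ran from 0.432 to 0.456, and that of the first was 0.490.

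The genes that cap, sever or nucleate filaments lay nearer 0. Cofilin (Cfl1, -0.12 ± 0.16) and destrin (Dstn, 0.18 ± 0.12), which sever filaments, profilin (Pfn1, -0.09 ± 0.15), which feeds monomers to growing ends, and the capping subunit Capzb (0.14 ± 0.10) had adjusted p values of 0.475 or more. The 5 genes of the branching Arp complex, Arpc2, Arpc3, Arpc5, Actr2 and Actr3, ranged from -0.16 to 0.03. A second Arpc5 probe set gave a difference of 0.13, against -0.08 for the first. With all probe sets tested together, its adjusted p was 0.787 and that of the first was 0.839. Arpc2 was the one whose groups did not overlap, with 10.02 to 10.12 in normoosmotic and 9.83 to 9.97 in hypoosmotic livers, at a difference of -0.16 ± 0.09 (adjusted p = 0.355).

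Srf, the transcription factor of many actin genes, read 6.28, 6.90, 7.76 and 6.97 in normoosmotic livers and 6.90, 7.13, 7.22 and 7.29 in hypoosmotic livers. Its difference of 0.16 ± 0.25 did not pass (adjusted p = 0.805), and its sign turned without normoosmotic replicate 1. The spread within the normoosmotic group was the wider one, with an SD of 0.61 against 0.17. The same held for Actg1 (0.56 against 0.07), Vcl (0.47 against 0.15) and Actb (0.36 against 0.08). Normoosmotic replicate 1 was the lowest and replicate 3 the highest of its group in each of these genes. Of the 24 actin genes measured (both groups above), 11 had that order: Actb, Actg1, Cfl1, Dstn, Capzb, Actn4, Vcl, Zyx, Myh9, Myh10 and Srf. Over all 42 genes replicate 1 was the lowest in 52.4%, against 21.6% of all genes, and replicate 3 the highest in 42.9%, against 21.3%. These counts describe the arrays and were made after the values were seen. Over the 42 genes the normoosmotic SD was the larger in 42.9%, close to 40.4% of all genes.

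**Figure D4:**
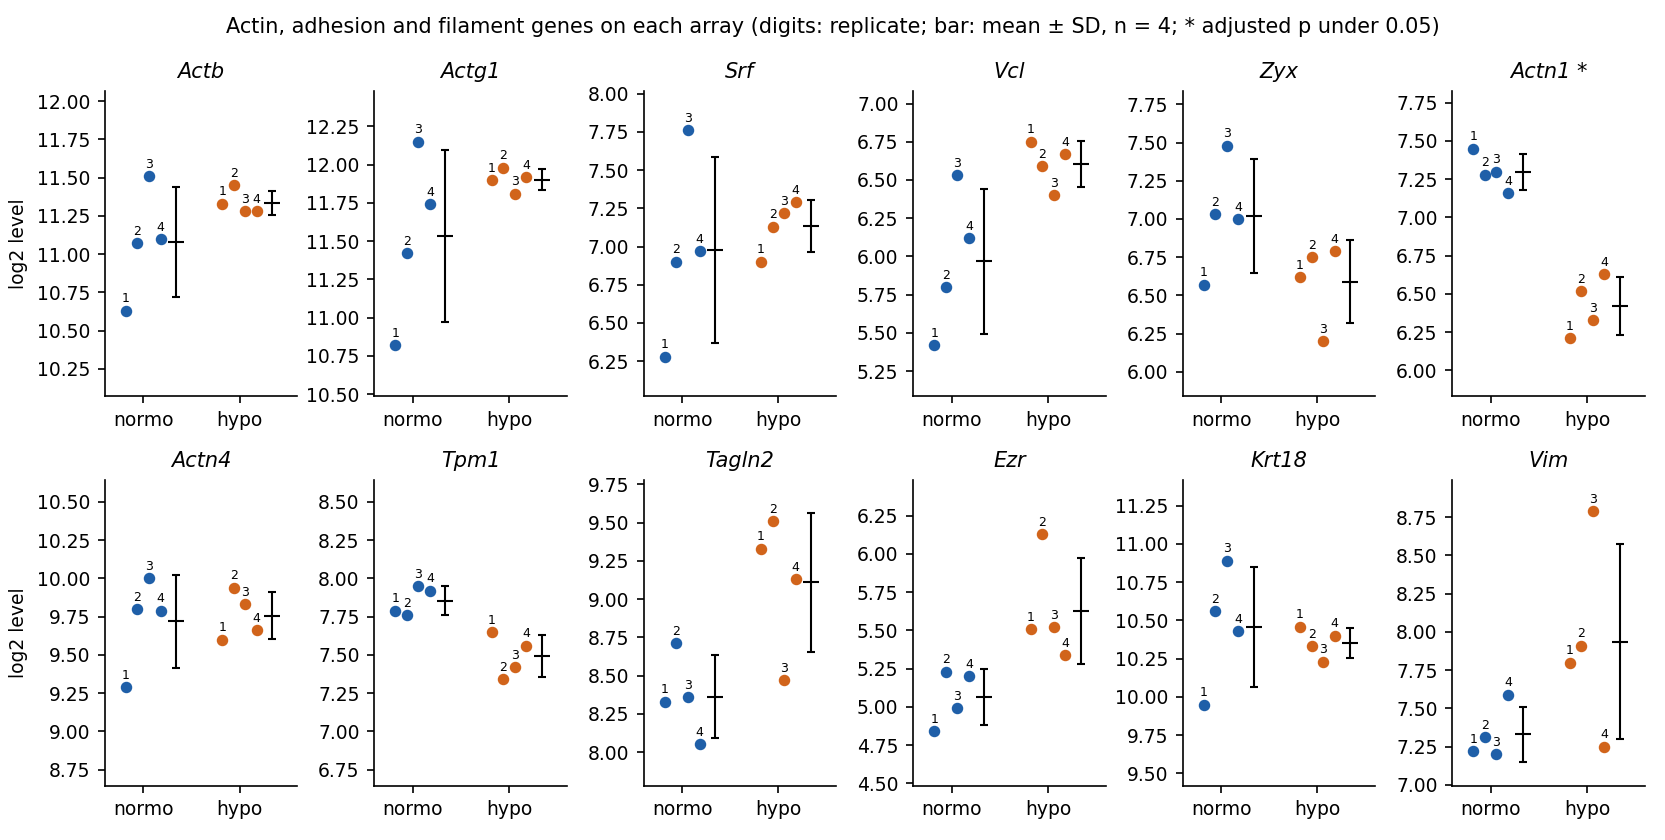
The log2 level of 12 actin, adhesion, linker and filament genes on each array, numbered by replicate, with the mean and SD of each group (n = 4); panels span the same range on the log2 axis and a star marks an adjusted p under 0.05. In Actb, Actg1, Srf and Vcl replicate 1 is the lowest and replicate 3 the highest normoosmotic array and the hypoosmotic arrays lie closer together, while Actn1 shows separate groups.

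The CArG box of SRF stood in 1.64% of all rat windows, in 2 of the 39 cytoskeletal windows and in 0 of the 10 tubulin windows. The 2 were those of Actg1, at -90, and of Srf itself, at -81 and -61. Actb had no window and was not searched. The same 150 bases before the start are shown for both, with CCAAT and CArG boxes in capitals.
Actg1, chr10:106120952-106121101, minus strand: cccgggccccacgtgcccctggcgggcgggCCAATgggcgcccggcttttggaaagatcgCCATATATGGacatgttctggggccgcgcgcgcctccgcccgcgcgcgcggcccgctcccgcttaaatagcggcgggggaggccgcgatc
Srf, chr9:21923926-21924075, plus strand: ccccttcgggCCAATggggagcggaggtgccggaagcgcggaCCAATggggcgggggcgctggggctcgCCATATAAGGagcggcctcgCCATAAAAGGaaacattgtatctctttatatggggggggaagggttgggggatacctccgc
Both windows held CCAAT as well, at -120 in Actg1 and at -140 and -108 in Srf.

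Of 17 further genes on a list of SRF, its coactivators and their known targets, 3 rose and 0 fell. Over all genes 2.45% rose and 4.62% fell. The median change of the 17 was 0.33 (1 gene had an unadjusted p under 0.05 in the lower direction). Csrp1, an actin-binding LIM protein, read 7.71, 8.04, 7.60 and 7.59 in normoosmotic livers and 8.72, 9.21, 8.52 and 8.40 in hypoosmotic livers. Its groups lay apart, and it rose by 0.98 ± 0.17 (adjusted p = 0.0100), passing in all 8 fits on 7 arrays. Fhl2, another LIM protein, read 4.39 to 4.51 against 6.34, 5.17, 5.67 and 4.94. It rose by 1.08 ± 0.24 (adjusted p = 0.0248), with hypoosmotic replicate 1 the highest, and was lost without any 1 of the normoosmotic arrays. Fhl1 rose by 0.57 ± 0.13 (adjusted p = 0.0248) and passed in 3 of the 8 fits, being lost without any 1 of the normoosmotic arrays or without hypoosmotic replicate 2. Acta2, Tagln and Cnn1, which stand both on this list and among the smooth muscle markers, did not pass with all 8 arrays, and Tagln passed without hypoosmotic replicate 4 (adjusted p = 0.0280). The change was above 0 for 13 of the 17 genes, for 6 of 6 smooth muscle markers and for 7 of 8 stellate cell and fibroblast markers, where it was for 7787 of all 14511 genes. The part of those cells in the values of this list was not tested.

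Of 21 further genes of actin nucleation and turnover, 1 rose and 1 fell, where 2.45% and 4.62% of all genes did. Twf1, twinfilin, which holds actin monomers, read 7.85 to 8.13 in normoosmotic and 7.08 to 7.62 in hypoosmotic livers and fell by 0.54 ± 0.13 (adjusted p = 0.0351), passing without hypoosmotic replicate 1, 3 or 4 but in none of the other 5 fits on 7 arrays, and not where the probe sets of a gene were averaged (adjusted p = 0.0696). Pfn2, a second profilin, rose by 0.64 ± 0.16 (adjusted p = 0.0357), but it passed in 1 of the 8 fits, that without hypoosmotic replicate 2. It read 1.83 to 2.24 in normoosmotic and 2.29 to 2.97 in hypoosmotic livers. Every array thus lay under the odorant receptors' 95th percentile of 3.07, near the array's floor.

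Of 13 further focal adhesion genes, 1 fell and the median change was -0.20. Itgb1, the beta chain of many integrin receptors for matrix, read 9.06 to 9.33 in normoosmotic and 8.63 to 8.83 in hypoosmotic livers. It fell by 0.45 ± 0.10 (adjusted p = 0.0280), and passed without normoosmotic replicate 2 or hypoosmotic replicate 4 but in none of the other 6 such fits. Of 10 septins and spectrins and of 10 further intermediate filament, lamin and plakin genes, 0 passed in either direction (limma; 2 and 0 had an unadjusted p under 0.05). Over the 131 further cytoskeletal genes measured, 4 rose and 6 fell, where 2.45% and 4.62% of all genes did, with a median change of -0.01.

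**Figure D5:**
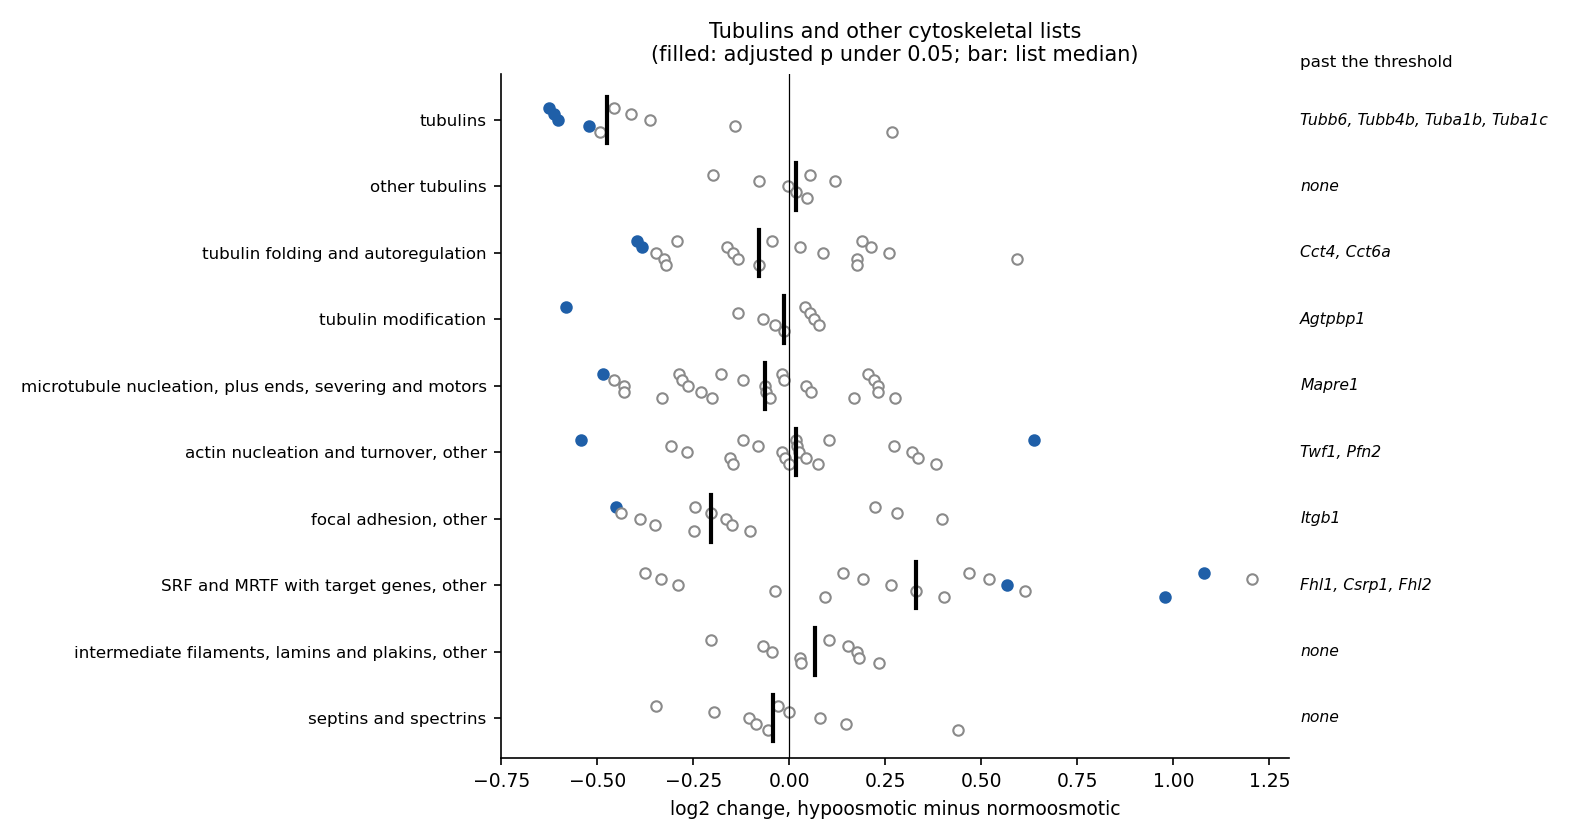
The log2 change of each gene on the tubulin list and on 9 further cytoskeletal lists (1 point a gene; bar, the median of the list; filled, adjusted p under 0.05), with the genes past the threshold named at the right. The tubulin median lies at -0.48 and that of the SRF targets at 0.33, while the other lists lie between -0.20 and 0.07.

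Ezrin, radixin and moesin tie actin to the plasma membrane, and radixin is the main one of the bile canaliculus. None of the 3 passed the test (1 had an unadjusted p under 0.05). Ezr read 4.84, 5.23, 4.99 and 5.20 in normoosmotic livers and 5.51, 6.13, 5.52 and 5.34 in hypoosmotic livers. It was the one cytoskeletal gene of the 42 whose hypoosmotic arrays all lay above the normoosmotic ones. The difference was 0.56 ± 0.17 (adjusted p = 0.0727), and it passed without hypoosmotic replicate 4 (adjusted p = 0.0483). Rdx differed by 0.29 ± 0.19 (adjusted p = 0.450), with hypoosmotic replicate 3 at 9.19 above the 8.25 to 8.49 of the other 3, and Msn by -0.04 ± 0.16 (adjusted p = 0.934).

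None of the 3 intermediate filament genes passed the test (1 had an unadjusted p under 0.05). Krt8 and Krt18 encode the keratin pair of hepatocytes. Krt8 read 8.12, 8.35, 8.91 and 8.57 in normoosmotic livers and 8.20, 8.21, 8.28 and 8.04 in hypoosmotic livers, a difference of -0.30 ± 0.16 (adjusted p = 0.306). Krt18 read 9.95, 10.56, 10.89 and 10.43 against 10.46, 10.33, 10.23 and 10.40, a difference of -0.10 ± 0.17 (adjusted p = 0.821). Both had normoosmotic replicate 1 lowest and replicate 3 highest, as in the actin genes, and a narrow hypoosmotic range.

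Vim encodes vimentin, which in liver belongs to stellate, endothelial and other mesenchymal cells rather than to hepatocytes. It read 7.22, 7.31, 7.20 and 7.59 in normoosmotic livers and 7.80, 7.91, 8.79 and 7.25 in hypoosmotic livers. Hypoosmotic replicate 3 was the highest and replicate 4 lay among the normoosmotic values, and the difference of 0.61 ± 0.26 did not pass (adjusted p = 0.205). Among the hypoosmotic arrays, the summed log2 level of 8 stellate cell and fibroblast markers was likewise highest on replicate 3, at 52.41, and lowest on replicate 4, at 47.12. Of these 8, 4 were highest on replicate 3, such as the stellate receptor Pdgfrb at 5.81, and 5 were lowest on replicate 4, such as the matrix protein Dcn at 5.82. Sinusoidal endothelial sums were also highest on replicate 3 (36.93) and lowest on replicate 4 (35.28), as were smooth muscle sums (32.67 and 30.33). Kupffer cell sums and lymphocyte and neutrophil sums were lowest on replicate 4 as well, but highest on replicate 2. The part of any of these cells in the Vim values was not tested.

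Because whole liver was measured, fewer cells of a type and less RNA per cell cannot be told apart. Summed over 8 stellate cell and fibroblast markers, the log2 levels ran from 48.95 to 49.41 on the normoosmotic arrays and from 47.12 to 52.41 on the hypoosmotic arrays, and 0 of 8 passed the test. Without hypoosmotic replicate 4, on which it read 5.82, Dcn passed (adjusted p = 0.00438), and Reln passed without hypoosmotic replicate 1 (adjusted p = 0.0461). For 6 smooth muscle markers the sums were 29.56 to 31.24 and 30.33 to 32.67, again with 0 past the test, and for 8 Kupffer cell markers 49.20 to 53.49 and 49.94 to 56.43, likewise with 0. Of 5 sinusoidal endothelial markers measured, Kdr rose by 0.66 (adjusted p = 0.0280) and Oit3 fell by 0.46 (adjusted p = 0.0294), with sums of 34.47 to 35.62 and 35.28 to 36.93. Kdr passed in 2 and Oit3 in 1 of the 8 fits on 7 arrays, and Pecam1, which did not pass, did so without hypoosmotic replicate 4 (adjusted p = 0.0463). Before adjustment, 2 of the stellate, 1 of the smooth muscle and 0 of the Kupffer cell markers had p under 0.05. So did 4 of the 5 endothelial markers, 3 higher and 1 lower, where 20.7% of all genes did. None of 5 bile duct or 9 lymphocyte and neutrophil markers passed, none having an unadjusted p under 0.05, and 6 of the 9 lay below the odorant receptors' 95th percentile. The part of cell composition in the tubulin and Actn1 values was not tested.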

How the data were processed

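The 8 arrays measured RNA of perfused rat liver, 4 arrays a group, with groups and replicate numbers taken from the sample titles. The authors deposited log2 expression values for 27596 probe sets, which, per the submitters' processing notes, involved RMA, Transcriptome Analysis Console 4.0 and Affymetrix Expression Console, in no stated role. RMA is known to equalise the arrays' distributions, and a shift common to most genes is lost by it. Scanner files and the genome build of the probes were not used here. Probe sets were named by the platform annotation: 15316 carried 1 symbol, 317 several and 11963 were not named. The probe set of highest mean stood for each gene.

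limma 3.58.1 (R 4.3.3) was fitted to all 14511 genes, hypoosmotic minus normoosmotic, with Benjamini-Hochberg adjustment and a threshold of 0.05. A ± after a difference is its standard error, a 95% interval is unadjusted, and a fold is 2 to the power of the difference. A difference that did not pass the threshold may still be real.

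The 43 genes and the other lists were chosen with earlier results of these data known. Members past the threshold and Actb, Actg1, Srf, Vim, Krt8, Krt18 and Stmn1 were to be given by array. Of each other list, genes past the threshold were to be named. Some genes that did not pass with all 8 arrays were named as well, such as Clasp1, Tagln, Dcn, Reln and Pecam1. Others that passed without 1 array, such as Lima1 and Tmsb10, were not. A further list is not reported here. Promoters were read from RefSeq (GRCr8) and searched with Python 3.11.15; that of Tubb6 was searched but is not printed, and tubulin protein sequences were not used here. Alternatives tried were a replicate block, array weights, an intensity trend (with robust variances), further quantile normalization, median centring, removal of the dimmest 30% of genes, averaging or separate testing of probe sets, a minimum fold of 1.2, and leaving out each array.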

Additional observations from a re-analysis of the deposited data

Results flagged for a closer look

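Of 84 groups of 4 arrays checked, 1 held an array far from the rest, where chance gives about 1 in 20: Flna, which encodes filamin A, read 4.65 on hypoosmotic replicate 4 against 5.32 to 5.44 on the other 3. The gap was 0.85 of the group's range.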

How the results depend on the processing

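Direction held for each gene past the threshold under every alternative, and 9 of 10 tubulins stayed below 0. The intensity trend, probe set averaging and joint probe set testing changed no call among the 42 genes. With a replicate block, 2 of the 42 rose (Tagln2, adjusted p = 0.0351, and Ezr, 0.0473) and 6 fell (Tubb2a added, 0.0418), 3 further cytoskeletal genes fell in place of 6 (Cct4, Cct6a and Twf1 did not pass), and over all genes 417 rose and 612 fell. The replicate numbers were not taken to pair the arrays: correlations between same-numbered arrays ran from 0.00613 to 0.257, not all over 0.1, though 6 of 8 arrays correlated best with their own number. Array weights gave 1 rise, Tagln2, and so did quantile normalization; Tubb2a passed with array weights and without the dimmest 30% of genes. A minimum fold of 1.2 left 1 fall among the 42, 0 among the tubulins, 0 rises and 0 falls among the further cytoskeletal genes, and 23 rises and 60 falls over all genes, where the fit without it gave 356 and 670. Median centring moved the median of all genes from 0.02 to -0.02 (log2) and gave 235 rises, so that falls made up 75.7% of calls against 65.3%; Tpm1 and Tubb2a then passed. Leaving out 1 array gave 0 to 2 rises and 3 to 6 falls among the 42, 2 to 5 falls among the tubulins, 1 to 7 rises and 1 to 4 falls among the further genes, and 137 to 392 rises and 331 to 659 falls over all genes, lowest in both without normoosmotic replicate 3. The median over the 42 genes then ran from -0.09 to 0.01 and changed sign without hypoosmotic replicate 3 or 4, while that of the tubulins ran from -0.52 to -0.40. The number of arrays limits what could be called, and levels near 3 lie close to the array's floor.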
